A study of Homo sapiens with 6 samples.

Results

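The 10 genes described here belong to the actin cytoskeleton and its serum response factor (SRF) programme, measured in human AZ-521 cells treated with platycodon D (PD) or with its solvent DMSO. They are the rows of the deposited expression table named ACTB, ACTG1, ACTN1, CNN1, TAGLN, TPM1, VCL, MYL9, FLNA and SRF, 10 of 58735 genes, and each name matched 1 row. They are chosen by name, as actin and SRF target genes, with earlier results of these data known. PD is a triterpenoid saponin of balloon flower root. The series was set up to examine how PD acts against gastric cancer cells. AZ-521 cells, labelled as wild type, were kept with 10 µM PD or with DMSO for 48 h, 3 samples each, and mRNA was sequenced.

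Actin monomers join into filaments that give a cell its shape and its grip on the substrate. Free monomers hold the MRTF proteins in the cytoplasm, and when actin polymerises the MRTFs enter the nucleus and, with SRF, switch on genes that encode actin itself and its partners. SRF also works with ternary complex factors, the ELK proteins, which drive early growth genes in response to MAP kinase signals. SRF binds a short DNA element called the CArG box, made of CC, a run of A or T, and GG.

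AZ-521 is 1 established line, and cell line registries list it as misidentified. Defining markers of the labelled gastric epithelial identity were nearly absent. Of 17 listed epithelial and gastric markers, 7 were listed at 0 in every sample, KRT18, KRT19 and TFF1 among them, and EPCAM did not exceed 0.258 FPKM (fragments scaled to gene length and library size). The transcription factor GATA6 averaged 45.3 ± 4.04 FPKM with PD and 37.0 ± 1.82 FPKM with DMSO (SD, n = 3 each). The summed level of 12 smooth muscle and fibroblast markers lay between 21.8 and 23.3 FPKM with PD and between 28.1 and 30.9 FPKM with DMSO. Of these 12, LUM, THY1 and ACTA2 were the highest, averaging 9.62, 5.74 and 4.85 FPKM with PD. With DMSO they averaged 13.6, 6.96 and 6.31 FPKM. The smooth muscle proteins desmin and MYH11 stayed at or under 0.0528 and 0.144 FPKM. Only 3 of the 12 and 2 of the 17 were high enough to test. Of these limma called 0 of either list, against 27.1% of all genes tested. An unadjusted p under 0.05 was reached by 2 and 1 of them, and voom called 1 and 0.

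Reads over genes numbered between 14915538 and 16341687 per sample. The labels do not say whether the samples of a group were grown as separate cultures, and the p-values reflect the scatter of these samples alone, which could be technical. PD replicate 3 and DMSO replicate 1 stood apart from the other 4 samples on the second principal component, which held 18.9% of the variance. Fits without both libraries are given beside the values of the members FLNA, TAGLN and SRF. Of 31 listed genes other than the members that were called in all samples and still tested without both, 0 lost the call. Without both, 4388 genes passed, against 3678 in all samples, so a call kept there is a weak check. Fewer cells of a type and less RNA per cell cannot be told apart in bulk samples like these.

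A CArG box stood in the RefSeq promoter window of 4 of the 7 members that have one, and those boxes are shown because the element is what SRF reads. The windows held 250 bases before and 50 after each transcript start of build GRCh38.p14. The search was for CC, 6 bases of A or T, and GG, a pattern that is its own reverse complement, so both strands were covered. Capitals mark the box, each line runs 5′ to 3′ on the gene's strand, and starts are those of RefSeq.
ACTG1 box, chr17:81512874-81512903, minus strand: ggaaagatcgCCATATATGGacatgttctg
FLNA box, chrX:154374709-154374738, minus strand: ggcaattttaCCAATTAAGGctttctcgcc
ACTN1 box, chr14:68977718-68977747, minus strand: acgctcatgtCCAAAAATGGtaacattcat
SRF, last 120 bases before the start, chr6:43171149-43171268, plus strand: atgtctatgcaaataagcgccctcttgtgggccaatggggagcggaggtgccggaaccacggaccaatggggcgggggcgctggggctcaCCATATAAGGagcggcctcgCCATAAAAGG

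The SRF gene had a pair of boxes, 30 to 21 and 10 to 1 bases before its start, in 1 of its 2 windows. In ACTG1 and in FLNA the single box lay at the same place, 94 to 85 bases before the start. In ACTN1 it lay 171 to 162 bases before the start of 1 of 4 windows. The windows of CNN1, TPM1 and VCL did not hold these letters, and ACTB, TAGLN and MYL9 had no entry. Across the genome 454 of 35116 windows held a box, or 1.29%, and 438 of 27305 genes had one in any window.

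The actins themselves rose. ACTG1 (ENSG00000184009, GRCh38 chr17:81509971-81523847, minus strand) encodes gamma-actin, 1 of the cytoplasmic actins found in nearly every cell. It measured 605, 561 and 698 FPKM in the PD samples, against 226, 220 and 251 FPKM in the DMSO samples. Every PD sample was more than double every DMSO sample. The log2 fold change of FPKM + 1 was 1.41 ± 0.12 (SE), with an adjusted p of 0.000394 from limma with Benjamini-Hochberg adjustment over 13579 genes. By its rise ACTG1 stood at rank 149 of those genes.

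ACTB (ENSG00000075624, chr7:5527147-5563784, minus strand), beta-actin, measured 399, 368 and 445 FPKM with PD, against 255, 262 and 292 FPKM with DMSO. The groups did not overlap, but they lay closer together than those of ACTG1. Its log2 fold change was 0.58 ± 0.11, with an adjusted p of 0.00896 in the same limma fit. With quantile scaling between libraries it was 0.19 (adjusted p = 0.0966). Together the pair came to 1025 ± 108 FPKM with PD and 502 ± 34.9 FPKM with DMSO (SD, n = 3 each), a ratio of 2.04.

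ACTG1 was the higher of the cytoplasmic actins in every PD sample and ACTB in every DMSO sample. ACTG1 exceeded ACTB in all 3 PD samples, by 1.52, 1.52 and 1.57 times, while in the DMSO samples it reached 0.886, 0.840 and 0.860 of the ACTB level. ACTB made up 39.7%, 39.6% and 38.9% of the summed FPKM of the pair with PD, against 53.0%, 54.3% and 53.8% with DMSO. The difference of -14.3 percentage points did not depend on the scaling between libraries, since both levels came from the same sample. The exact two-sided permutation test gave p = 0.1, the smallest that 3 samples against 3 allow, and 0.175 after adjustment over the 7 family shares tested. Pseudogenes of ACTB and ACTG1 took few reads: 16 of the 30 listed were above 0, and their sum was at most 1.72% of the level of the pair in any sample.

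**Figure D1:**
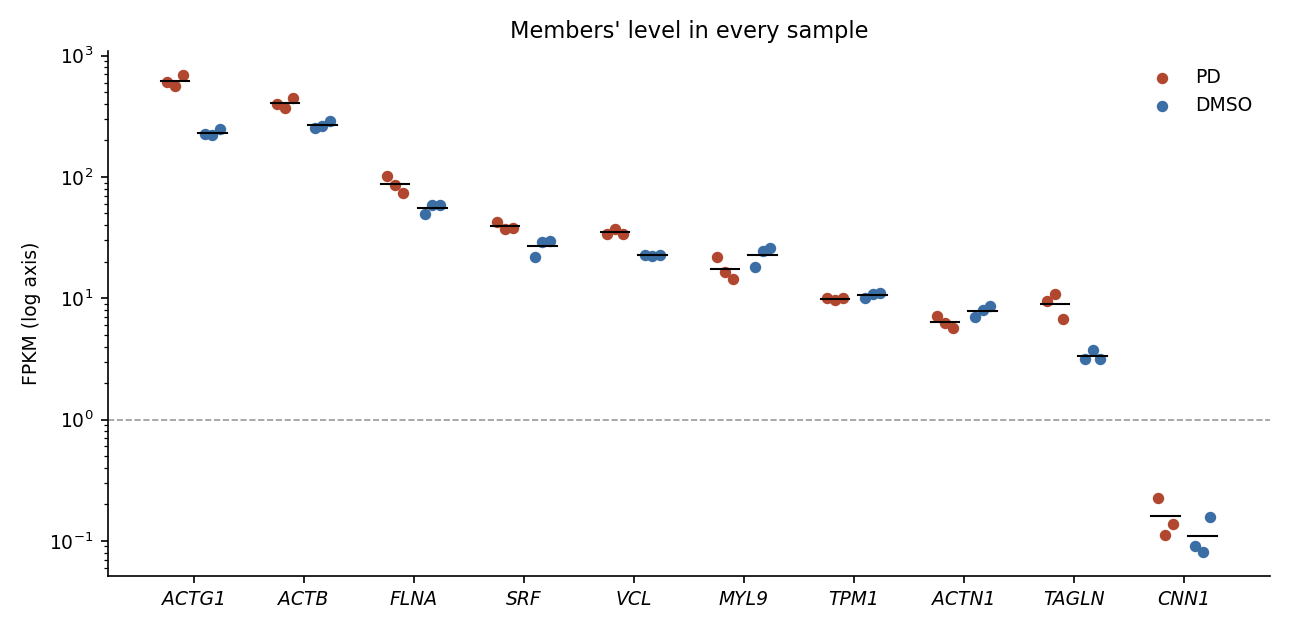
FPKM (log axis) of each member in every sample, PD points on the left and DMSO points on the right of each gene, with a bar at the group mean and a dashed line at 1 FPKM. The PD points of ACTG1, ACTB, FLNA, SRF, VCL and TAGLN lie above all their DMSO points, and CNN1 lies below the line in all 6 samples.

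Among the proteins that bind filaments and tie them together, FLNA rose and ACTN1 did not pass the test. FLNA (ENSG00000196924, chrX:154348524-154374638, minus strand) encodes filamin A, which crosslinks filaments into networks and links them to integrins. It measured 102, 86.3 and 73.2 FPKM with PD, against 49.2, 58.7 and 58.4 FPKM with DMSO. The groups did not overlap, and both samples that stand apart, PD replicate 3 and DMSO replicate 1, were the lowest of their groups. The log2 fold change was 0.64 ± 0.14 (limma adjusted p = 0.0154) and 0.67 without those libraries (adjusted p = 0.00712). The call was lost without PD replicate 2, at an adjusted p of 0.0541.

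ACTN1 (ENSG00000072110, chr14:68874143-68979440, minus strand) encodes alpha-actinin-1, which bundles filaments in stress fibres and adhesions. It measured 7.17, 6.27 and 5.68 FPKM with PD, against 7.03, 8.03 and 8.61 FPKM with DMSO. The groups overlapped through PD replicate 1 and DMSO replicate 1. Its log2 fold change was -0.27 with a 95% interval from -0.53 to -0.01 and a limma adjusted p of 0.115. Scaled to equal totals the value was -0.41, with an adjusted p of 0.0441.

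VCL (ENSG00000035403, chr10:73995193-74121363, plus strand) encodes vinculin, which couples actin to integrin and cadherin adhesions. It was the most even of the members that rose, with 34.0, 37.0 and 34.2 FPKM in PD samples, against 22.9, 22.2 and 22.9 FPKM in DMSO samples. The gap between the groups was wider than the range within either. The log2 fold change was 0.61 ± 0.08, with a limma adjusted p of 0.00225. Its span shares 1109 bases with AP3M1 on the opposite strand, a gene that measured 14.8 to 17.8 FPKM with PD and 17.0 to 17.8 FPKM with DMSO.

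Of the members known from smooth muscle, TAGLN rose, MYL9 did not pass and CNN1 was too low to test. TAGLN (ENSG00000149591, chr11:117199321-117204782, plus strand) encodes transgelin or SM22-alpha, an actin-binding protein of smooth muscle and stressed fibroblasts and a textbook SRF target. It measured 9.49, 10.8 and 6.74 FPKM with PD, against 3.16, 3.77 and 3.15 FPKM with DMSO. All PD samples were higher than all DMSO samples, and PD replicate 3 was the lowest of its group. The log2 fold change was 1.18 ± 0.16 (limma adjusted p = 0.00277), and 1.32 without PD replicate 3 and DMSO replicate 1 (adjusted p = 0.00171). The summed smooth muscle and fibroblast markers given above were lower in the PD samples, and their part in these values was not tested.

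CNN1 (ENSG00000130176, chr19:11538717-11550323, plus strand) encodes calponin-1, a smooth muscle protein that holds back myosin's action on actin. It was close to undetected, with 10, 5 and 6 reads in PD samples and 4, 4 and 8 reads in DMSO samples, and stayed below the 1 FPKM needed for a test. MYL9 (ENSG00000101335, chr20:36541484-36551447, plus strand) encodes a regulatory light chain of myosin II, the motor that pulls on filaments. It measured 21.8, 16.4 and 14.5 FPKM with PD, against 18.0, 24.5 and 26.2 FPKM with DMSO. The groups overlapped, with the highest PD value above the lowest DMSO value. The log2 fold change was -0.37, with a 95% interval from -0.80 to 0.06 and a limma adjusted p of 0.180.

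TPM1 (ENSG00000140416, chr15:63042632-63071915, plus strand) encodes tropomyosin-1, which runs along filaments and sets which other proteins can bind. It measured 10.1, 9.76 and 9.96 FPKM with PD, against 10.0, 10.9 and 11.0 FPKM with DMSO. The values lay almost on top of each other. The interval of the log2 fold change ran from -0.27 to 0.10 (limma adjusted p = 0.458). The table counts TPM1 over 12876 bases, the union of the exons of 34 transcripts whose longest has 3957 bases, so its level per length is low against genes with fewer variants, and a switch between its isoforms cannot be seen here.

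SRF itself (ENSG00000112658, chr6:43171299-43181507, plus strand) rose. It measured 42.4, 37.6 and 37.7 FPKM in PD samples, against 21.9, 29.2 and 29.4 FPKM in DMSO samples. The groups were separate, and DMSO replicate 1 was well below the other DMSO samples. The log2 fold change was 0.54 ± 0.13, with a limma adjusted p of 0.0216, and 0.43 without PD replicate 3 and DMSO replicate 1 (adjusted p = 0.0149). The call was lost without PD replicate 1 (adjusted p = 0.0708) and without PD replicate 2 (adjusted p = 0.0597).

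Counted over the list, 6 of the 9 members tested rose and limma called 0 lower, with 1, ACTN1, lower at an unadjusted p of 0.0450. By voom on the recovered reads the counts were also 6 and 0. Over all 13579 genes 14.3% were called higher, 12.7% lower and 27.1% either way. At 2-fold or more 2 members passed, ACTG1 and TAGLN, against 2.84% of all genes called higher at that size. The median log2 fold change was 0.58 over the members tested and 0.00 over all genes. Because the members were chosen with earlier results of these data known, these counts are no independent test of the list. The groups did not overlap in 6 of the 9, which was also true of 44.4% of all genes tested. Scaling every library to the same FPKM total lowered the median of all genes by 0.13 and left 1290 genes called higher and 3158 lower, against 1947 and 1731 in the fit described here; 4 of the 6 members kept their call under it, and FLNA (adjusted p = 0.0547) and SRF (0.0756) lost theirs.

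**Figure D2:**
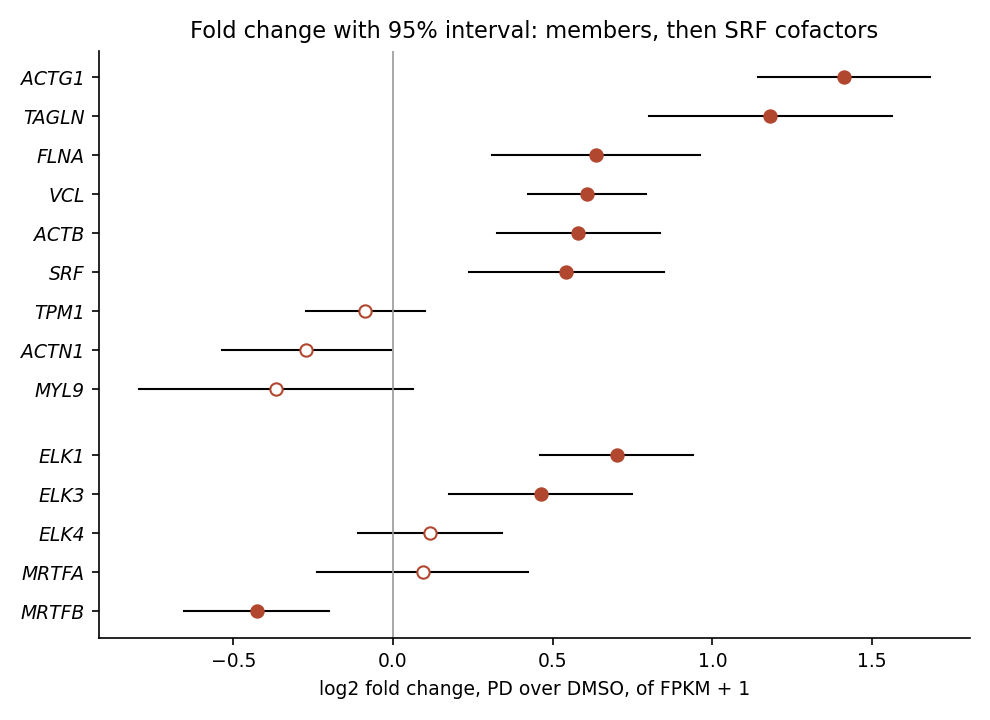
Log2 fold change of FPKM + 1, PD over DMSO, for the 9 members tested and below them the 5 SRF cofactors tested, with 95% intervals; filled points passed an adjusted p of 0.05. ACTG1 and TAGLN lie past 1, a cluster of 4 members lies between 0.54 and 0.64, and the intervals of TPM1 and MYL9 cross 0.

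By level, the order with PD was ACTG1, ACTB, FLNA, SRF, VCL, MYL9, TPM1, TAGLN, ACTN1 and CNN1. TAGLN overlapped its neighbours TPM1 and ACTN1 there, and the other neighbours were separate in FPKM. With DMSO the order was ACTB, ACTG1, FLNA, SRF, MYL9, VCL, TPM1, ACTN1, TAGLN and CNN1, and MYL9 overlapped both SRF and VCL. ACTG1 stood 29th with PD and 62nd with DMSO among all genes tested by mean FPKM, while ACTB stood 41st with PD and 51st with DMSO.

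Within groups the members did not share a single pattern. PD replicate 3 was the highest PD sample for ACTB and ACTG1 but the lowest for FLNA, TAGLN, MYL9 and ACTN1. DMSO replicate 1 was the lowest DMSO sample for ACTB, ACTN1, FLNA, MYL9, TPM1 and SRF. All 6 members that rose also passed without both of these libraries, with log2 fold changes between 0.43 for SRF and 1.32 for TAGLN. Whether counting used the strand is not stated, and several members overlap a gene on the opposite strand, VCL with AP3M1 as given above among them. The antisense gene AC139149.1, which covers most of ACTG1, measured 1.53 to 1.70 FPKM with PD and 0.816 to 0.919 FPKM with DMSO. MYL9 lies wholly inside DLGAP4-AS1, which measured 0.876 to 1.39 FPKM with PD and 0.790 to 0.963 FPKM with DMSO. TAGLN shares 446 bases with PCSK7, at 0.625 to 1.11 FPKM with PD and 0.756 to 0.983 FPKM with DMSO.

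Shares of the members within their gene families are free of the scaling between libraries. Their size does depend on the gene lengths behind FPKM, such as the 12876 bases counted for TPM1. TPM1 took 6.50 ± 0.33% of the tropomyosin total with PD and 7.75 ± 0.25% with DMSO (SD, n = 3 each). In the other direction, TPM2 measured 28.3, 22.5 and 19.1 FPKM with PD, against 12.3, 17.4 and 17.7 FPKM with DMSO, and did not pass (log2 fold change 0.53, limma adjusted p = 0.0659). Without PD replicate 3 and DMSO replicate 1 it passed, at 0.50 (adjusted p = 0.0261).

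The share of CNN1 among the calponins was 0.363% with PD and 0.183% with DMSO, on 4 to 10 CNN1 reads a sample. The shares of TPM1 and CNN1, like that of ACTB, did not overlap between groups, each at the exact permutation floor of p = 0.1. The shares of ACTN1 (31.5% with PD, 34.2% with DMSO), MYL9 (2.90% with PD, 3.64% with DMSO) and TAGLN (5.26% with PD, 4.26% with DMSO) overlapped. Their exact permutation p was 0.2 for ACTN1, 0.4 for MYL9 and 0.3 for TAGLN. The non-muscle light chains MYL12A and MYL12B far outnumbered MYL9: MYL12B averaged 479 ± 87.4 FPKM with PD and 482 ± 43.6 FPKM with DMSO.

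**Figure D3:**
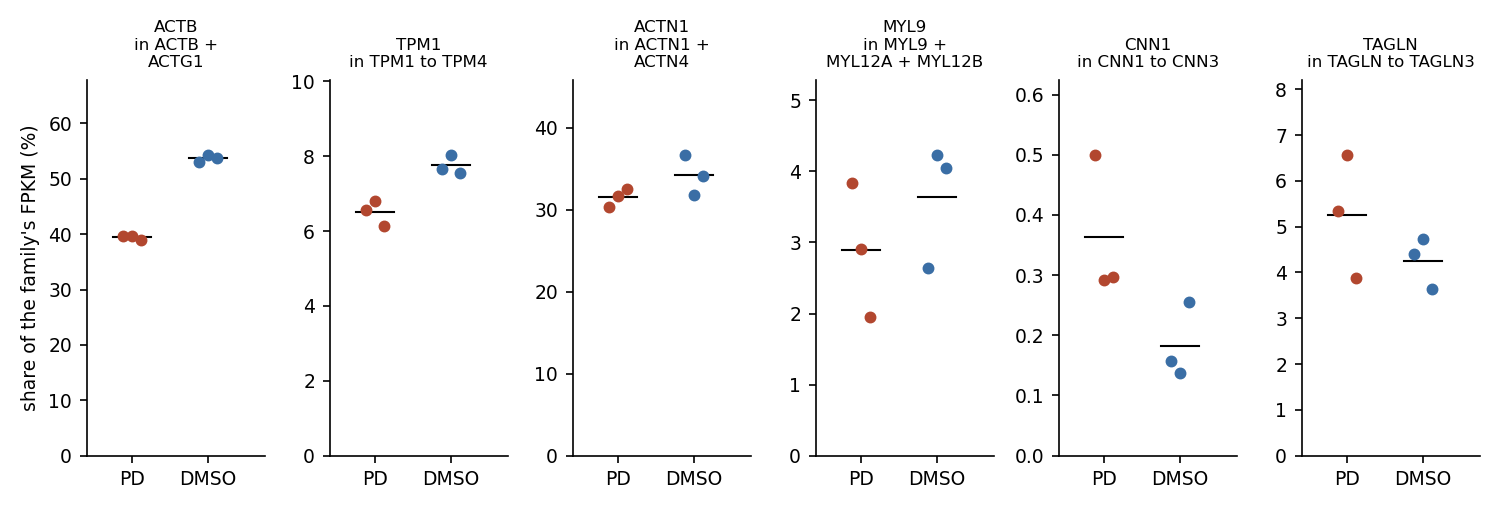
Share of 6 members in the summed FPKM of their families (percent, axes from 0), 1 point a sample with a bar at the mean, PD left of DMSO. The shares of ACTB and TPM1 are lower and that of CNN1 higher in every PD sample than in every DMSO sample, while those of ACTN1, MYL9 and TAGLN overlap.

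Of 20 close relatives of the members 12 were tested, 1 rose and 2 fell, with a median log2 fold change of -0.02. With 25% called, the list was near the 27.1% of all genes tested. TAGLN2, the widely expressed relative of TAGLN, measured 168, 154 and 167 FPKM with PD, against 68.4, 76.1 and 83.4 FPKM with DMSO. It was higher in every PD sample, with a log2 fold change of 1.10 ± 0.10 (limma adjusted p = 0.000658). The calponins CNN2 and CNN3 both fell. CNN2 averaged 14.7 ± 1.60 FPKM with PD and 20.5 ± 3.11 FPKM with DMSO (log2 fold change -0.45, limma adjusted p = 0.0433). CNN3 averaged 28.6 ± 4.04 FPKM with PD and 38.9 ± 1.70 FPKM with DMSO (-0.44, limma adjusted p = 0.0285). The muscle actin ACTA1 was too low to test, at 1.22, 1.09 and 0.535 FPKM with PD and 0.174, 0.588 and 0.189 FPKM with DMSO. ACTA2, the smooth muscle actin, averaged 4.85 ± 0.568 FPKM with PD and 6.31 ± 2.01 FPKM with DMSO and did not pass (limma adjusted p = 0.352).

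SRF works through cofactors of 2 kinds, the MRTFs and the ternary complex factors. MRTFA, the main actin-sensing cofactor, averaged 7.25 ± 0.897 FPKM with PD and 6.77 ± 1.17 FPKM with DMSO, with overlapping groups (log2 fold change 0.09, limma adjusted p = 0.661). Its relative MRTFB measured 1.89, 2.10 and 1.79 FPKM with PD, against 2.83, 3.00 and 2.97 FPKM with DMSO, and fell by 0.43 on the log2 scale (limma adjusted p = 0.0177). MYOCD, the smooth muscle member of that family, stayed under 0.160 FPKM.

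Of the ternary complex factors, ELK1 measured 23.2, 21.3 and 20.6 FPKM with PD, against 11.7, 12.7 and 14.6 FPKM with DMSO. Every PD sample was above every DMSO sample, with a log2 fold change of 0.70 ± 0.10 (limma adjusted p = 0.00349). ELK3 averaged 7.48 ± 0.935 FPKM with PD and 5.16 ± 0.705 FPKM with DMSO and rose by 0.46 (limma adjusted p = 0.0301). ELK4 averaged 13.7 ± 0.756 FPKM with PD and 12.6 ± 1.19 FPKM with DMSO and did not pass (limma adjusted p = 0.412). These are RNA levels, and where the MRTF proteins lay in the cells was not measured.

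Of 29 listed targets assigned to the MRTF arm other than the members, 22 were tested, 4 rose and 3 fell. Their median log2 fold change was 0.18. With 31.8% called, the list was near the 27.1% of all genes tested. LIMA1, which did not pass, reached 1 FPKM in the PD samples alone. CCN1, a matrix protein listed under its older name CYR61, rose most, with 370, 346 and 338 FPKM in PD samples against 110, 130 and 131 FPKM in DMSO samples (log2 fold change 1.50, limma adjusted p = 0.000218). ZYX, which encodes the adhesion protein zyxin, averaged 26.4 ± 2.82 FPKM with PD and 14.3 ± 2.84 FPKM with DMSO (0.85, limma adjusted p = 0.00738). ITGA5, the fibronectin receptor's alpha subunit, averaged 7.05 ± 0.677 FPKM with PD and 4.35 ± 0.0482 FPKM with DMSO (0.59, limma adjusted p = 0.00485). The targets that fell were CNN2, FHL1 and ENAH, the last 2 named after their values were seen.

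Nearly all tested targets of the ternary complex factor arm rose. Of 15 listed 14 were tested, but FOSB, EGR2 and EGR3 reached 1 FPKM in the PD samples alone, so they could be tested only because they were higher there. Of the other 11 tested, 10 rose, with a median of 1.28, while 14.3% of all genes tested were called higher. The immediate early genes FOS, IER3 and JUNB had log2 fold changes of 2.12, 1.73 and 1.47, against 1.41 for ACTG1. FOSB, at 2.22, lay under 1 FPKM in every DMSO sample. DUSP6, a MAP kinase phosphatase, was the single tested gene of the list that was not higher. It averaged 43.7 ± 3.83 FPKM with PD and 49.3 ± 1.78 FPKM with DMSO (limma adjusted p = 0.208). With equal totals, quantile scaling or array weights the list had 1 gene called lower.

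**Figure D4:**
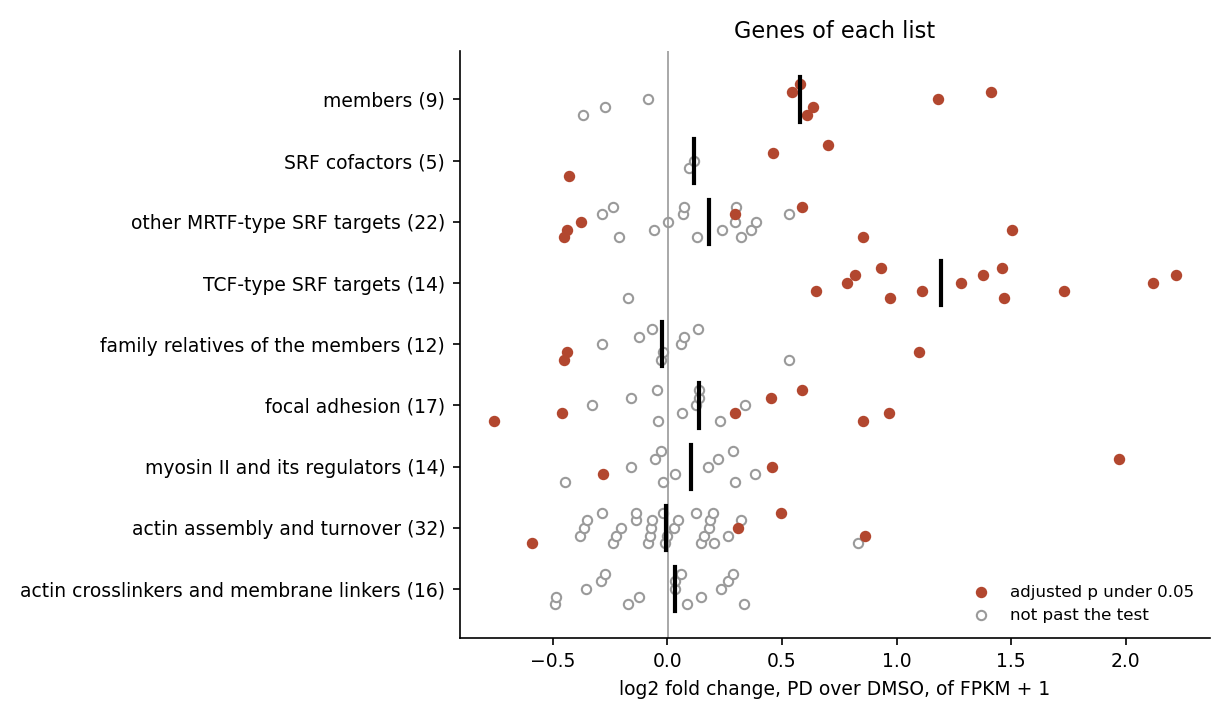
Log2 fold change of FPKM + 1, PD over DMSO, of every tested gene in each list, with the number tested in brackets and a bar at the median; filled points passed an adjusted p of 0.05. The members' median is 0.58 and that of the ternary complex factor targets 1.20, over 14 genes of which 3 reached 1 FPKM with PD alone, while those of the assembly, crosslinker and relatives' lists are -0.01, 0.03 and -0.02.

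Few of the genes that build and take apart filaments passed the test. Of 34 listed 32 were tested, 3 rose and 1 fell, or 12.5% called against 27.1% of all genes, with a median of -0.01. With equal totals 1 rose and 6 fell, and without PD replicate 3 and DMSO replicate 1 5 rose and 6 fell. GSN, encoding the severing protein gelsolin, averaged 9.82 ± 1.02 FPKM with PD and 4.93 ± 0.0421 FPKM with DMSO (log2 fold change 0.86, limma adjusted p = 0.00121). CAP1, which recycles actin monomers, averaged 57.6 ± 3.74 FPKM with PD and 40.7 ± 5.44 FPKM with DMSO (0.50, limma adjusted p = 0.0206). The WAVE proteins, which switch on branching, went both ways. WASF2 averaged 68.0 ± 1.65 FPKM with PD and 54.7 ± 2.25 FPKM with DMSO (0.31, limma adjusted p = 0.0275). WASF1 averaged 22.2 ± 2.86 FPKM with PD and 33.9 ± 3.70 FPKM with DMSO (-0.59, limma adjusted p = 0.0127). Of 7 tested subunits of the Arp2/3 complex, which nucleates branches, limma called 0, voom called 0 and 1 had an unadjusted p under 0.05.

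Among crosslinkers and membrane linkers limma called 0 of 16 tested, against 27.1% of all genes. An unadjusted p under 0.05 was reached by 5 of them, and voom called 3 lower. With equal totals limma called 4 lower and 0 higher, and without PD replicate 3 and DMSO replicate 1 it called 2 higher and 4 lower. The most abundant were FSCN1, the bundling protein fascin, at 108 ± 10.2 FPKM with PD and 89.0 ± 15.1 FPKM with DMSO, and SEPTIN2, at 91.9 ± 11.2 FPKM with PD and 89.9 ± 11.4 FPKM with DMSO.

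Of 14 tested genes of myosin II and its regulators 2 rose and 1 fell, or 21.4% called against 27.1% of all genes. RHOB, an inducible small GTPase, measured 194, 179 and 200 FPKM with PD, against 41.6, 47.8 and 55.1 FPKM with DMSO. Its lowest PD sample was over 3 times its highest DMSO sample, and its log2 fold change was 1.97 ± 0.12 (limma adjusted p = 0.000122). RHOA, the main activator of stress fibres, averaged 380 ± 61.2 FPKM with PD and 275 ± 21.1 FPKM with DMSO (0.46, limma adjusted p = 0.0417), a call lost in 10 of 19 alternative settings. MYH10, a non-muscle myosin II heavy chain, fell to 18.3 ± 0.608 FPKM with PD, against 22.5 ± 0.667 FPKM with DMSO (-0.28, limma adjusted p = 0.0347).

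Adhesion genes, beside which vinculin works, had 5 of 17 tested that rose and 2 that fell, with a median of 0.14. That is 41.2% called, against 27.1% of all genes. Both that fell, FERMT1 and TLN2, reached 1 FPKM in the DMSO samples alone and were tested only through them. Of the other 15 tested, 5 rose and 0 fell. With equal totals 3 rose and 4 fell. ITGB1, the common beta-1 integrin subunit, measured 320, 371 and 399 FPKM with PD, against 204, 178 and 174 FPKM with DMSO. It was higher in every PD sample, with a log2 fold change of 0.97 ± 0.12 (limma adjusted p = 0.00176). FERMT1, an epithelial kindlin, fell to 0.620 ± 0.175 FPKM with PD, against 1.73 ± 0.0421 FPKM with DMSO (-0.76, limma adjusted p = 0.00640).

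Genes with a CArG box near the start went both ways. The members and their listed targets that carried one included ACTG1, FLNA and SRF, which rose, and ACTN1, which did not pass. Of the other tested targets with a box, EGR1 and EGR2 rose, CNN2 and FHL1 fell, and FHL2, SMTN, TGFB1I1 and TPM4 did not pass. EGR2 reached 1 FPKM in the PD samples alone, so it could be tested only because it was higher there. For each of the 4 that were called, picked after their values were seen, 1 box is shown to set a higher and a lower gene side by side. The other box of EGR1, 105 to 96 bases before its start, has different letters and is not shown.
EGR1, chr5:138465386-138465415, plus strand: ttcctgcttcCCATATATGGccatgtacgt
EGR2, chr10:62816418-62816447, minus strand: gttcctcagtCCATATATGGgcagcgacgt
CNN2, chr19:1026509-1026538, plus strand: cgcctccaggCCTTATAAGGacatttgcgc
FHL1, chrX:136196911-136196940, plus strand: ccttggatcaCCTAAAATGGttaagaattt

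The box of EGR2 and 1 of the boxes of EGR1 have the same 10 letters as that of ACTG1. In the fit over all genes, 129 tested genes had a box in a window: 19 rose and 22 fell, 31.8% in all, with a median log2 fold change of 0.05. Of 8873 tested genes with any window 27.8% were called. A box was found for 10 of 27 other MRTF-type targets with a window, 2 of 10 ternary complex factor targets and 0 of 31 assembly genes. A match of letters is not a site of binding.

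**Figure D5:**
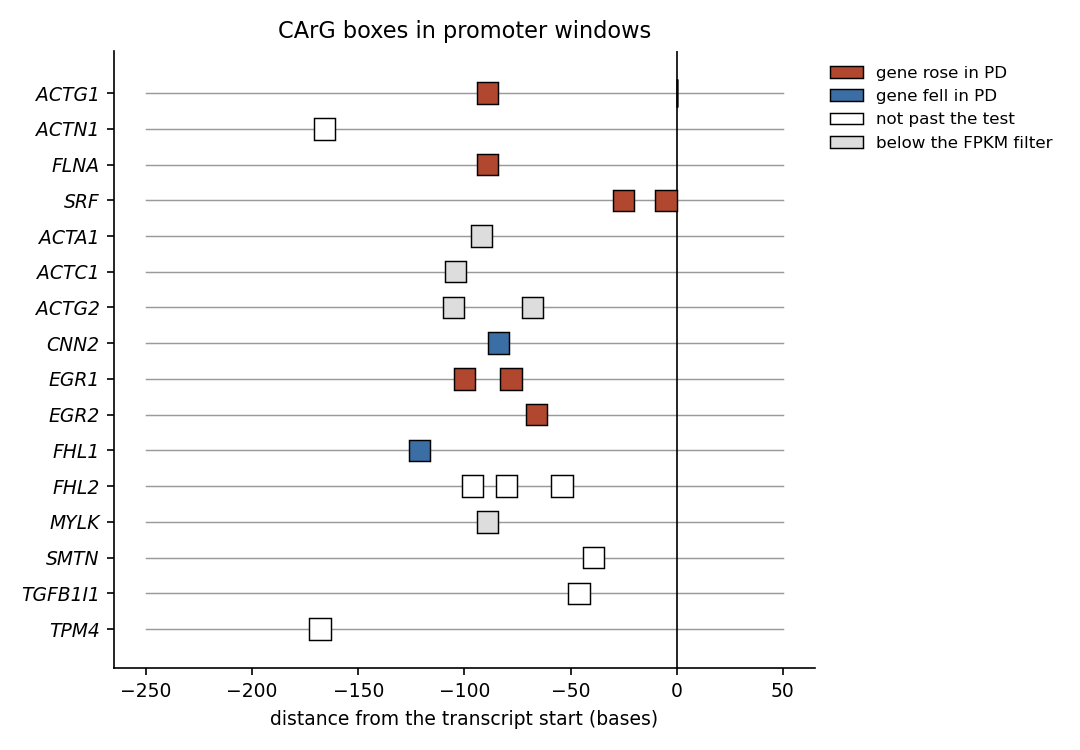
Position of CArG boxes in the promoter windows of the members (top) and of listed MRTF-type and ternary complex factor targets, in bases from the transcript start; the colour gives the call of the gene. ACTG1, FLNA, SRF, EGR1 and EGR2 rose, the last tested through the PD samples alone. CNN2 and FHL1 fell, and 5 others including ACTN1 did not pass. The boxes of ACTG1 and FLNA lie at the same distance, 94 to 85 bases before the start.

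The genes whose levels ran most like SRF over the 6 samples were CAP1 (Pearson r = 0.999), PHLDA2 (0.999), EMP3 (0.998), VPS11 (0.998) and POR (0.997), among 6786 protein-coding genes of at least 5 FPKM. For TAGLN they were ZBTB40, TAF1 (both 0.998), ZNF251, KPTN (both 0.997) and SAMD4A (0.996). These values describe 6 samples that fall into 2 groups and share their libraries, and 9.39% of the genes compared had an r above 0.9 with SRF and 10.1% with TAGLN.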

How the data were processed

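The authors deposited FPKM values per gene and sample, with the gene length beside them. For the aligner, the counting program and its strand setting, nothing is given in the sources used here. Mouse builds GRCm38 and mm10 stand in the submitters' processing notes, but all 58735 gene identifiers and coordinates are those of human GENCODE 29 (GRCh38), and the lengths of the members equal the union of their exons in it. A stranded mRNA kit was used, per the labels' protocols. Of the gene names, 27 had become dates and were restored through their identifiers. All values (100% in each sample, within 0.01 of a whole number) were whole multiples of 1 read, which gave the reads per gene.

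Genes with at least 1 FPKM in at least 3 samples were tested on log2(FPKM + 1), which understates changes of low genes, with limma 3.58.1 (R 4.3.3, mean-variance trend), two-sided, with Benjamini-Hochberg adjustment over 13579 genes at 0.05; checked on simulated data. Family shares were compared with exact permutation tests (scipy 1.17.1), and 1 of the 7 is not reported here. The members and lists were chosen with earlier results of these data known. All members, SRF cofactors and family relatives in the shares are named, from each other list up to 4 genes with the largest called changes (or the highest level where fewer than 2 passed), and the 5 closest genes by correlation with SRF and with TAGLN. Pseudocount, filter, scaling, sample weights, a count-based fit, a replicate block and leaving out samples were tried as alternatives. Promoter windows are those of RefSeq for GRCh38.p14.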

Additional observations from a re-analysis of the deposited data

How the results depend on the processing

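ACTG1, TAGLN and VCL passed in all 19 alternative settings, with log2 fold changes of 1.05 to 1.48, 0.74 to 1.39 and 0.45 to 0.66. ACTB missed the threshold without a filter (adjusted p = 0.0569) and with quantile scaling (0.0966). FLNA and SRF each missed the threshold in 5 settings, with adjusted p up to 0.0605 and 0.0757, and under the replicate block both did. ACTN1 and MYL9 passed lower with array weights (0.0139 and 0.0128). Members past the test numbered 6, but 3 with no filter on low values and 4 to 6 with 1 sample left out. Genes past the test numbered 3678, against 1844 with the replicate block, 6301 with array weights, 2214 at a mean of at least 5 FPKM, 4277 with voom, 4388 without PD replicate 3 and DMSO replicate 1, and 1917 to 3367 with 1 sample left out, the lowest without PD replicate 2. The deviations of samples of the same number from their group means had correlations of -0.39, 0.17 and -0.16. With 3 samples a group these cannot decide whether the numbers pair samples, and the labels do not say. Of genes none of which passed, the sign turned with equal totals for MRTFA (-0.049), ELK4 (-0.035), SEPTIN2 (-0.13), PLS3 (-0.13), TPM3 (-0.025) and TPM4 (-0.084), with quantile scaling for SEPTIN2 (-0.093), PLS3 (-0.12) and TPM4 (-0.014), and with 1 sample left out for MYL12A (-0.14 to 0.032), MYL12B (-0.16 to 0.054), CDX2 (-0.15 to 0.038), SEPTIN2 (-0.063 to 0.13), PLS3 (-0.065 to 0.16) and MRTFA (-0.035 to 0.19). RHOA lost its call in 10 settings, with a log2 fold change of 0.05 under quantile scaling. The call was lost for CNN2 and MYH10 in 8, ELK3, CNN3 and WASF2 in 7, CAP1 in 6, MRTFB in 4 and WASF1 in 1. None of the 6 shares given reversed. The causes were not tested. Depth limits low genes such as CNN1, with 4 to 10 reads.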
